A study of Ambystoma mexicanum with 60 samples.

Results

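The fertilized egg of the axolotl, *Ambystoma mexicanum*, was compared at its ends: section A, the extremely animal segment, against section E, the extremely vegetal segment. The comparison rested on 6 libraries, sections A and E of embryos 1, 2 and 3 at the 1-cell stage, of 59 libraries in the count table and 60 labelled samples. The members were these 6 libraries, chosen by section and stage alone, and every one of the 28909 transcripts in the table was tested. Eggs laid after natural mating were freed of their jelly, frozen with the animal pole up and sliced along the animal-vegetal axis (TOMO-seq), and the slices of an embryo were pooled into 5 tubes named A, B, C, D and E from the animal to the vegetal end. The labels give no strain, age, transgene or treatment. The study used different females and males in separate experiments, and the labels do not give the parents of each embryo, so differences between parents are part of the spread between embryos and cannot be told apart from it. The 3 fertilized eggs were cut whole, so each library mixed cortex, cytoplasm and yolk of its slices. Each library was made from 100 ng of total RNA, so the counts measured the share of a transcript in the RNA of a section. More copies of a transcript in a section and less of the other RNA there cannot be told apart.

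An amphibian egg is polarized before fertilization. The pigmented animal hemisphere holds the nucleus and gives rise mainly to ectoderm, while the yolky vegetal hemisphere gives rise to endoderm. In *Xenopus laevis*, selected mRNAs are carried to the vegetal cortex during oogenesis by a mitochondrial cloud pathway and by a later pathway along microtubules. Their products include germ plasm factors and signals that pattern the endoderm and the mesoderm. Animal enrichment of mRNA in amphibian eggs is known less well. Human symbols from the ortholog table were used here as gene names.

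Vegetal transcripts that the results turn on are identified below by the PCR primers that the study designed on them, since the deposited transcript sequences themselves were not analysed here. Each primer is given 5′ to 3′, and capitals mark its last 5 bases, the 3′ end from which the polymerase extends. All 4 pairs belong to transcripts called higher in section E.
grip2-1 forward: ttttccagccggcaaAATGG
grip2-1 reverse: ttggccacaggtttcCAAGT
nanos1 forward: ctccggaggctcctaTGACT
nanos1 reverse: cccttgcccctttgcACTAA
dnd1 forward: tgcccatgaagatccAGGTT
dnd1 reverse: ggaattcaaccatgcAGCCA
plin2 forward: cgattcatcctcgggTCTGG
plin2 reverse: ctcgcatatgggtggGTCTC

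The 3 section A libraries held 3297603, 3269409 and 5783104 counts and the 3 section E libraries 1780255, 2562328 and 2757461 counts, in the order of embryos 1 to 3. The median over the 14 libraries of the 1-cell stage was 3283506. Section D of embryo 3 was labelled an outlier and has no column in the table, so it did not enter the fit. Counts were scaled by median-of-ratios size factors, and all levels below are such normalized counts. All replicate values are listed in the order of embryos 1, 2 and 3. The sections of an embryo share its number in the labels, and embryo was a block in the fit.

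With median-of-ratios size factors and transcripts counted singly, the vegetal pole held more enriched transcripts than the animal pole, and the differences there were larger. Calls needed an edgeR quasi-likelihood test, adjusted over all 28909 transcripts, to give p under 0.01, and the mean total had to exceed 20, where the mean total is the sum of the mean normalized counts of the 5 sections. There were 1790 transcripts higher in section E (6.19% of those tested) and 679 higher in section A (2.35%), together 2469 or 8.54%. Among the 26441 transcripts with a mean total above 20, 7474 (28.3%) had an unadjusted p under 0.05. The median difference of the transcripts higher in E was 2.26 on the log2 scale, and 1518 differed at least 2-fold, 993 at least 4-fold and 299 at least 32-fold. The median difference of those higher in A was 0.82 in size, and 211 differed at least 2-fold, 57 at least 4-fold and 10 at least 32-fold. In these medians and counts, the 63 transcripts higher in E and the 32 higher in A that had fewer than 3 counts over the libraries of the lower pole were put at a floor of 3 counts there. Every one of the 2469 had the same sign in 3 of 3 embryos, but they were selected by a test on these same embryos. A human symbol was known for 52.0% of the transcripts higher in E and for 70.1% of those higher in A, against 59.8% of all with a mean total above 20.

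The split between the poles depended on the scaling. The transcripts higher in E took 36.0% to 39.6% of the counts of the section E libraries and 11.1% to 13.0% of the counts of the section A libraries. When each library was scaled by its total count, which includes these transcripts, the median transcript with a mean total above 20 moved to -0.51 (it was -0.03 with the size factors), and the split became 1332 higher in E and 3793 higher in A. Of the 1790 calls for E, 1323 were still called in that direction and 23 changed sign, and all 679 calls for A were made again. With the TMM factors of edgeR the split was 1723 and 814. With the size factors and counts summed per symbol, 1135 of 9194 symbols were higher in E and 897 higher in A. Which scaling is closer to amounts per egg was not tested, and all differences below are relative to the median transcript. The calls also rested on all sections sharing an estimate of the spread: in a fit to the 6 libraries alone, 658 transcripts were higher in E and 8 higher in A.

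**Figure D1:**
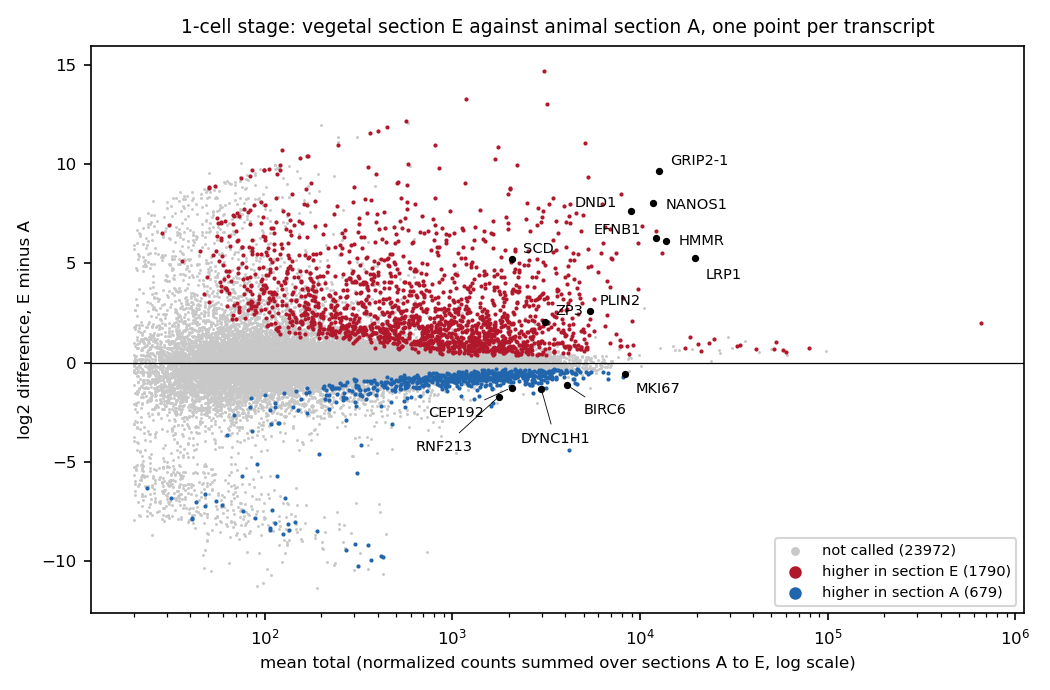
Log2 difference of section E minus section A at the 1-cell stage (vertical axis) against the mean total in normalized counts summed over 5 sections (horizontal, log scale), 1 point for each of the 26441 transcripts with a mean total above 20. The 1790 red points (higher in E) reach far from 0 at every level, while most of the 679 blue points (higher in A) lie close under it. The differences are fitted values, also for transcripts at 0 at a pole, and black points mark named transcripts such as *grip2-1* at 9.67.

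Seen across all 5 sections, the vegetal calls formed a step at the bottom of the egg and the animal calls a shallow slope. The median share of the five-section sum of a transcript higher in E was 10.3% in section A, 10.5% in B, 11.2% in C, 17.5% in D and 49.6% in E. Section E alone held more than 50% of the sum for 883 of the 1790 and more than 90% for 143. The median step on the log2 scale was 0.01 from A to B, 0.10 from B to C, 0.65 from C to D and 1.47 from D to E. For the transcripts higher in A the median shares were 23.1%, 23.3%, 22.5%, 17.8% and 13.0% from A to E. Their highest section was A for 251, B for 288, C for 127 and D for 13 of the 679, so that section A was the peak of a minority of the transcripts called higher in it than in E. Because the calls were made on A and E, the shares of these sections are a description, and no test was run on them.

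**Figure D2:**
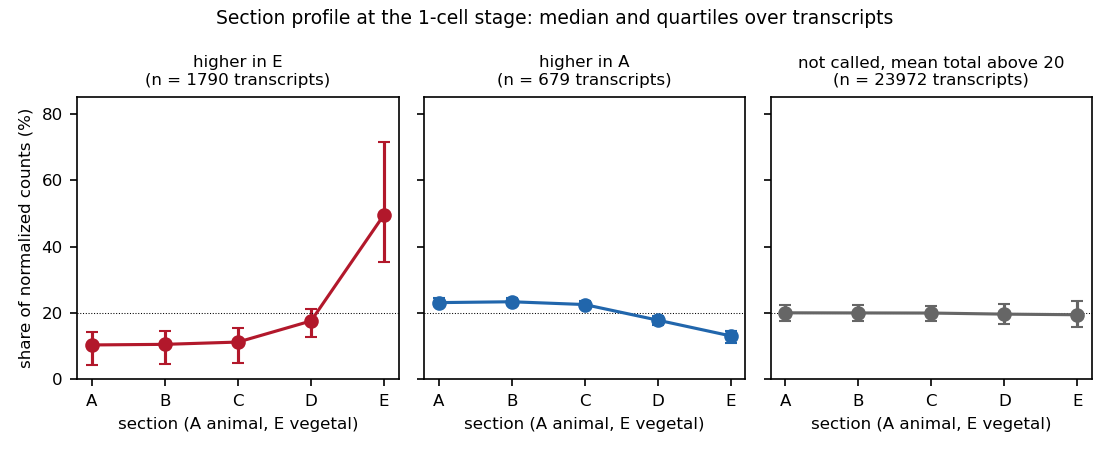
Share of the normalized counts summed over sections A (animal) to E (vegetal) that each section held, as median (points) and quartiles (bars) over the 1790 transcripts higher in E, the 679 higher in A and the 23972 not called. The vegetal set climbs from 17.5% in D to 49.6% in E, the animal set falls from 22.5% in C to 13.0% in E, and the dotted line marks an even share of 20%.

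Germ plasm RNAs had some of the largest differences. The germ plasm contains the determinants that make primordial germ cells in frogs. In urodeles, germ cells are held to be induced in the mesoderm instead. *Grip2-1*, a transcript of a gene for a PDZ scaffold protein found in the germ plasm of *Xenopus*, had 24.2, 13.9 and 8.70 normalized counts in section A and 18753, 6866 and 11712 in section E. The groups were far apart in every embryo, and section D held a mean of 194, so the level rose most at the last step of the axis. The log2 difference was 9.67 ± 0.31 (SE, adjusted p = 1.2e-07). *Grip2-2*, a second transcript under the same symbol that may share reads with the first, went from 9.84, 0 and 10.2 to 7923, 3216 and 4394 (9.36 ± 0.62, adjusted p = 6.4e-06). *Nanos1* encodes a translational repressor of the germ line. It stood at 50.1, 38.0 and 33.8 in A and 15214, 6926 and 11042 in E, with no overlap (8.07 ± 0.27, adjusted p = 1.4e-07). *Dnd1*, whose product binds RNA and protects germ line messages, stood at 47.4, 34.3 and 37.9 and 10067, 6532 and 7615 (7.66 ± 0.37, adjusted p = 7.4e-07). In all 3 genes embryo 2 had the lowest value in section E.

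*Velo1* codes for a protein that organizes the mitochondrial cloud of the frog oocyte. Its first transcript had 113, 69.5 and 69.6 in A and 5446, 4528 and 6078 in E (6.01 ± 0.75, adjusted p = 4.7e-04), and its second had 10.7, 83.4 and 81.9 and 3023, 3192 and 4009 (5.85 ± 1.12, adjusted p = 0.0062). The poles were apart in each embryo, but the first lost its call without embryo 1 or embryo 3 (5.77 to 6.26 on the log2 scale) and the second whichever embryo was left out (5.45 to 6.22). *Rbpms2-1*, a transcript of the RNA-binding protein that frogs carry in germ plasm as Hermes, had 223, 211 and 245 in A and 2474, 2112 and 2402 in E (3.37 ± 0.12, adjusted p = 1.8e-07). *Rbpms2-2* had 59.9, 82.5 and 74.2 in A and 756, 141 and 209.9 in E. Its vegetal values differed more than 5-fold among the embryos, and it did not pass the test (2.24 ± 0.68, adjusted p = 0.058). With DESeq2 it was called. *Plin2*, which coats lipid droplets and was named by the study among vegetal RNAs, had 333, 505 and 500.4 in A and 2469.7, 2906 and 2589 in E (2.60 ± 0.17, adjusted p = 6.4e-06). Unlike *grip2* or *nanos1*, *rbpms2-1* and *plin2* were well measured in section A too.

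Of 21 measured genes of a list of germ plasm and germ cell genes, 7 were higher in E and 2 higher in A, and the list median was 0.04, close to the -0.04 of all transcripts. With 1 transcript per symbol, 736 of 9194 symbols (8.01%) were higher in E and 410 (4.46%) higher in A. The 7 were *grip2*, *nanos1*, *rbpms2*, *dnd1*, *tfap2c* (8.01), *mov10l1* (1.47) and *dazl* (1.54), the numbers being log2 differences, and the 2 were *tdrd6* (-1.28) and *tdrd1* (-0.82), which encode Tudor proteins of the germ granule. *Tfap2c* encodes a transcription factor, *mov10l1* a helicase of the piRNA pathway and *dazl* an RNA-binding protein of germ cells. *Ddx4*, the vasa helicase, was not called, at 0.04 (adjusted p = 0.94). The list thus split into a few RNAs almost restricted to section E and a larger number near 0. The direction of the *tdrd6* and *tdrd1* difference and of the 7 vegetal members was the same with either other scaling, while the list median fell to -0.44 with total counts. The calls changed: 6 were higher in E and 3 higher in A with TMM factors, and 5 and 4 with total counts. In the 6 libraries alone they were 5 and 0, and without each embryo in turn 5 and 0 or 1. *Mov10l1* and *dazl* had low levels, with means of 16.0 and 15.3 in A and 44.5 and 44.6 in E.

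The mRNAs named as vegetal or mesendoderm determinants in frogs were higher in E in 4 of 12 measured genes and higher in A in none, with a list median of 0.42 (-0.06 with total counts). *Wnt5a*, a secreted Wnt ligand, rose from 89.5, 123 and 95.7 in A to 1274, 1133 and 1571 in E (3.70 ± 0.17, adjusted p = 5.8e-07). *Efnb1*, a membrane-bound ligand of Eph receptors, had 159, 122 and 117 in A and 17004, 5618 and 10288 in E (6.29 ± 0.31, adjusted p = 9.3e-07). Embryo 2 had the lowest vegetal level of both, and the poles did not overlap for either gene. *Smad2*, which carries the signal of nodal and activin to the nucleus, had a smaller difference, with 412, 433 and 414 in A and 2023, 1564 and 2154 in E (2.19 ± 0.13, adjusted p = 3.5e-06). *Bicc1*, an RNA-binding protein, was the remaining call (2.70). *Gdf1*, *eomes* and *otx1* gave 0.42, 0.30 and 0.13 and did not pass the test (adjusted p = 0.23, 0.27 and 0.63).

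Among Wnt receptors, destruction complex proteins and effectors, 2 of 24 (8.33%) were higher in E and 1 (4.17%) higher in A (list median 0.06). Both shares were near the 8.01% and 4.46% of all symbols. With total counts 1 was higher in E and 5 higher in A. *Fzd7*, a Wnt receptor, had 45.6, 5.56 and 39.9 in A and 1356, 469 and 1258 in E (5.05 ± 0.57, adjusted p = 2.4e-04). The lowest value of each pole was that of embryo 2, and the call was lost without embryo 3. *Csnk1a1*, casein kinase 1 alpha, which primes beta-catenin for its destruction, gave 1.42 ± 0.28 (adjusted p = 0.0078), and this call was lost with total counts and without embryo 3. *Gsk3b*, the kinase that acts after it, was higher in A, with 660.2, 538 and 576 in A and 414, 309 and 409 in E (-0.65 ± 0.10, adjusted p = 0.0015). The *gsk3b* call was lost in the 6 libraries alone and whichever embryo was left out. *Ctnnb1*, beta-catenin itself, was not called (0.21, adjusted p = 0.35). Of the TGF-beta and BMP ligands, receptors and SMADs, 4 of 22 (18.2%) were higher in E and 2 (9.09%) higher in A, with a list median of 0.21. With total counts 3 were higher in E and 8 higher in A, with a median of -0.27. In the 6 libraries alone 1 was higher in E and 0 higher in A, and without each embryo in turn 2 or 3 and 0. *Smad2*, called higher in E above, was counted with the determinants and not in this list. *Bmp15*, an oocyte growth factor, rose from 391, 415 and 414 to 1591, 1106 and 1502 (1.78 ± 0.13, adjusted p = 1.4e-05). *Smad4*, the partner of all receptor SMADs, gave 1.12 ± 0.09 and *acvr1*, a BMP type I receptor, 0.97 ± 0.10 (adjusted p = 2.9e-05 and 1.2e-04). Both calls were lost in the 6 libraries alone, and that of *acvr1* also without embryo 2 or embryo 3. *Tgfbr1* was also higher in E (0.96), while *bmpr1a* (-0.50) and *smurf1* (-0.39), a ubiquitin ligase for SMADs, were higher in A.

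**Figure D3:**
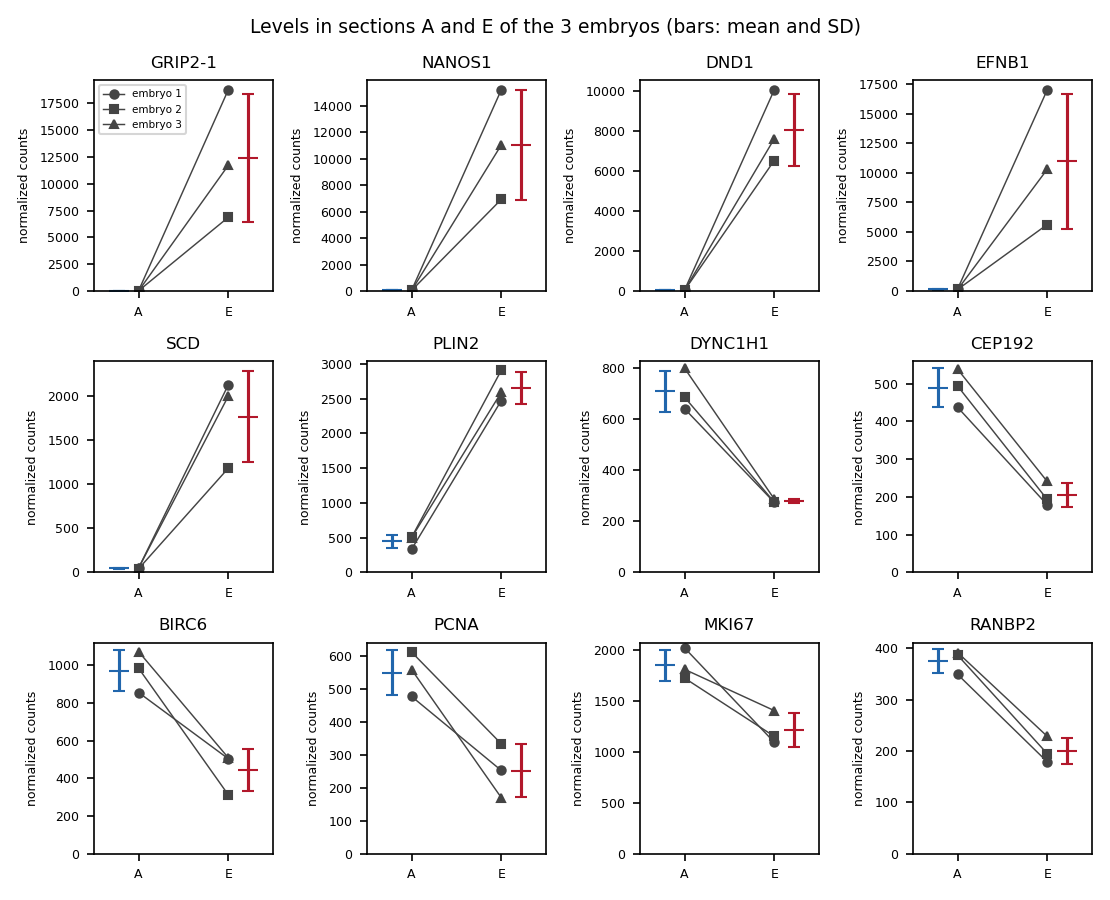
Normalized counts in sections A and E (horizontal axis) for 12 named transcripts, with a line for each of the 3 embryos and blue and red bars for the mean and SD of each section; every vertical axis starts at 0. *Grip2-1*, *nanos1*, *dnd1*, *efnb1* and *scd* lie near 0 in A and far above it in E, *plin2* is measured at both poles, and the 6 animal transcripts such as *dync1h1* fall to part of their section A level.

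The largest differences in mean normalized counts among transcripts with a symbol also lay on the vegetal side. The first 6 belonged to *lrp1*, *hmmr*, *grip2-1*, *nanos1*, *efnb1* and *ppp1r3b*. *Lrp1*, a large endocytic receptor of the LDL receptor family, had 487, 450.2 and 379 in A and 21323, 11660.2 and 17957 in E (5.26 ± 0.22, adjusted p = 3.3e-07). *Hmmr*, a hyaluronan-binding protein that also sits on the spindle, had 166, 167 and 198 and 14439, 10532 and 12815 (6.15 ± 0.23, adjusted p = 2.1e-07). *Ppp1r3b*, which directs protein phosphatase 1 to glycogen, had 118, 114 and 95.2 and 13130.0, 8509 and 10142 (6.62 ± 0.29, adjusted p = 4.1e-07). Every section E value exceeded every section A value by more than an order of magnitude in these genes. All 6 kept their call under each of the 10 alternatives, including without each embryo.

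By fold change the first ranks went to transcripts almost undetected in section A. *Tbc1d13*, a Rab GTPase-activating protein, had 0 counts in every section A library and 674, 344 and 308 in section E, at least 612-fold higher against a floor of 3 counts over the group. *Fnbp1*, which bends membranes in endocytosis, had 0.895, 0 and 0 in A and 1202, 425 and 616 in E (adjusted p = 6.0e-05). With 1 count over the section A libraries, its ratio of E to A was 2877, with an exact 95% counting interval of 515 to 113728, and its call was lost without embryo 3. *Hspa12a*, a distant Hsp70 relative, had 0, 0.926 and 3.58 and 3737, 955 and 1844 (9.97 ± 0.57, adjusted p = 2.3e-06). None of these overlapped between poles. *Armc10* had 2 counts over the section A libraries and a ratio of 1129 (312 to 9337). *Kiaa1324l* had 1 count there and a ratio of 669.9 (119 to 26555), and it lost its call without embryo 1 or embryo 3. These intervals cover counting error only. With counts summed per symbol the log2 difference was 2.90 for *fnbp1*, 3.84 for *armc10* and 7.29 for *kiaa1324l*, all called. *Exosc6*, a subunit of the RNA exosome, gave 8.95 ± 0.86, a call lost without embryo 1. A transcript of *slc25a22*, a mitochondrial glutamate carrier, was at 0 in A and at 205, 49.1 and 48.2 in E, at least 139-fold higher. A transcript of *habp4*, an RNA-binding protein, was likewise at 0 in A and at 133, 99.8 and 99.5 in E, at least 153-fold higher, but it was a minor form. With counts summed over the 3 *habp4* transcripts the difference was -0.20 (adjusted p = 0.28). *Tbc1d13* and *slc25a22* kept their direction and call after summing (8.78 and 7.72). As single transcripts, these of *tbc1d13*, *slc25a22* and *habp4* lost their call in the 6 libraries alone and whichever embryo was left out, and that of *tbc1d13* also with DESeq2.

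Among transcripts with no human symbol, a pair was singled out after their values were seen. AMEXTC_0340000041503 was at 0 in section A and at 4963, 1415 and 2836 in section E. AMEXTC_0340000203149 was at 0 in section A and at 1600.0, 724 and 1208 in section E. The first was at least 4250.3-fold and the second at least 1629-fold higher in E. These IDs have no gene name in the ortholog table, so nothing is said of what they encode.

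Genes of the secretory and degradative compartments were called on the vegetal side more often than all symbols together. For COP and Golgi proteins, V-ATPase subunits and Rab GTPases, the share called higher in A was above that of all symbols too. Lysosomal hydrolases break down macromolecules in acidic compartments. Of 26 measured, 11 were higher in E (42.3%) and none higher in A, and the list median was 0.87 (0.38 with total counts), the highest of the 29 lists with at least 10 measured members. With total counts 7 were higher in E and 2 higher in A. In the 6 libraries alone 4 were higher in E, and without embryo 1, 2 or 3 there were 4, 6 and 7. None was higher in A in these smaller fits. *Gaa*, which digests glycogen, had 84.1, 94.5 and 84.4 in A and 395, 263 and 329.7 in E (1.90 ± 0.15, adjusted p = 2.4e-05). *Ids*, a sulfatase, had 81.4, 101 and 98.2 and 202, 214 and 230.1 (1.21 ± 0.10, adjusted p = 3.4e-05). The poles did not overlap in either gene. Both calls were lost in the 6 libraries alone, and that of *ids* also without embryo 1 or embryo 2. *Ppt1* (5.23), *man2b1* (2.02), *ctsd* (1.70), *psap* (1.54), *scpep1* (1.31), *gusb* (1.07), *ctsa* (0.95) and *naglu* (0.70) were also called, as log2 differences. They include a thioesterase, a mannosidase, proteases, a saposin precursor and a glucuronidase. The *man2b1* call was lost without embryo 1. *Fuca1*, a fucosidase, had 95.7, 63.9 and 76.7 in A and 149, 149 and 112 in E and fell short of the threshold (0.79 ± 0.17, adjusted p = 0.012). It passed with DESeq2 and with counts summed per symbol.

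Proteins that enter the ER, or fold and glycosylate others there, were higher in E in 14 of 38 genes (36.8%) and higher in A in none, with a list median of 0.41 that turned to -0.07 with total counts, where 7 were higher in E and 2 higher in A. In the 6 libraries alone 5 were higher in E, and without embryo 1, 2 or 3 there were 7, 6 and 5. None was higher in A in these smaller fits. *Ero1a*, an oxidase that drives disulfide bond formation, had 184, 172 and 126 in A and 909, 792 and 893 in E (2.46 ± 0.16, adjusted p = 4.8e-06). *Rpn2*, a subunit of the oligosaccharyltransferase, had 157, 165 and 136 and 451, 496 and 533 (1.69 ± 0.12, adjusted p = 9.0e-06). *Ppib*, an ER cyclophilin, had 302, 356 and 294 and 714, 890.4 and 749.5 (1.31 ± 0.10, adjusted p = 1.7e-05). The section E values of an embryo exceeded its section A values in all 3 genes. The other calls were the chaperones *hsp90b1* (1.67), *hspa5* (0.59), *calr* (0.56) and *dnajb11* (0.57), the disulfide isomerases *p4hb* (1.22), *pdia3* (1.01), *pdia4* (0.79) and *pdia6* (0.71), and *sec62* (1.24), *sec63* (0.62) and *sel1l* (0.58). Of COP coats, cargo receptors and Golgi proteins, 6 of 33 (18.2%) were higher in E and 3 (9.09%) higher in A, beside 8.01% and 4.46% of all symbols. Their median was 0.01. With total counts the list turned to 4 higher in E and 12 higher in A, with a median of -0.47. The vegetal calls included 4 cargo receptors of the p24 family, *tmed4* (1.65), *tmed9* (1.87), *tmed7* (1.84) and *tmed2* (1.09). *Tmed9* had 216, 237 and 207 in A and 858, 875 and 679.5 in E (adjusted p = 1.1e-05). *Sys1*, a Golgi membrane protein, rose from 169, 214 and 207 to 421, 393 and 485 (1.15 ± 0.12, adjusted p = 1.1e-04). The *sys1* and *tmed7* calls were lost in the 6 libraries alone, and that of *sys1* also without embryo 1 or embryo 3. The coat subunit *copz1* (-1.29), *golgb1* (-0.58) and *sec24b* (-0.92) were higher in A. Of 14 subunits of the V-ATPase, the proton pump of acidic compartments, *atp6v0b* (0.84 ± 0.07), *atp6v0c* (1.22 ± 0.17) and *atp6ap2* (0.80) were higher in E and *atp6v0d1* (-0.86 ± 0.13) higher in A. These were 21.4% and 7.14% of the V-ATPase subunits. With total counts 2 V-ATPase subunits were higher in E and 5 higher in A, and in the 6 libraries alone none was called. Rab GTPases, which mark membrane compartments, were called in both directions, with 6 of 45 (13.3%) higher in E and 5 (11.1%) higher in A. With total counts these were 4 and 19, and without each embryo in turn 4 or 5 and 0. *Rab43* had 123, 117 and 162 in A and 1044, 944 and 1305 in E (3.04 ± 0.14, adjusted p = 7.1e-07), and *rab6a* (1.29 ± 0.11) and *rab18* (1.08 ± 0.09) followed.

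Solute carriers carry ions and metabolites across membranes. Of 159 solute carriers, 21 were higher in E (13.2%) and 1 higher in A (0.629%), and the list median was 0.13 (-0.35 with total counts, where 16 were higher in E and 22 higher in A). In the 6 libraries alone 9 were higher in E, and without embryo 1, 2 or 3 there were 12, 9 and 10. None was higher in A in these smaller fits. *Slc12a9*, of the cation chloride cotransporter family, had 97.5, 90.8 and 78.8 in A and 4516, 2796 and 4449 in E (5.46 ± 0.21, adjusted p = 2.5e-07). *Slc25a30*, a mitochondrial carrier, had 20.6, 27.8 and 26.6 and 919, 675 and 715 (4.94 ± 0.23, adjusted p = 6.7e-07). The most abundant transcript of *slc25a22*, AMEXTC_0340000229531, had 3.58, 1.85 and 4.09 and 595, 404 and 557 (7.28 ± 0.27, adjusted p = 1.8e-07). None of the 3 overlapped between poles. The carrier higher in A was *slc38a2*, an amino acid transporter (-0.36). Of 22 genes of lipid droplets and fatty acid metabolism, 3 were higher in E (13.6%) and 2 higher in A (9.09%), with a list median of 0.08, and with total counts 3 were higher in E and 4 higher in A. *Scd*, the desaturase that makes oleate, had 49.2, 41.7 and 50.1 in A and 2130.2, 1183 and 2001 in E (5.22 ± 0.22, adjusted p = 3.3e-07). *Acsl4*, which activates long fatty acids, gave 1.71, while *acsl1* (-0.50) and *hadha*, a subunit of the mitochondrial trifunctional protein (-0.79 ± 0.09), were higher in A. The list was therefore called in both directions.

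Of a list of collagens, laminins, integrins and cadherins, 7 of 30 (23.3%) were higher in E and none higher in A. The list median was 0.12 (-0.36 with total counts, where 6 were higher in E and 4 higher in A). In the 6 libraries alone 2 were higher in E, and without embryo 1, 2 or 3 there were 2, 4 and 4. None was higher in A in these smaller fits. The protocadherin *fat1*, given below among the animal calls, was not counted in this list. *Itga6*, a laminin receptor subunit, had 182, 164 and 177 in A and 1202, 1025 and 1292 in E (2.75 ± 0.10, adjusted p = 1.8e-07). *Lamc1*, the gamma chain of laminin, had 1039.5, 938 and 927 and 4186, 3390.3 and 4855 (2.09 ± 0.12, adjusted p = 2.9e-06). *Lama5*, an alpha chain, had 355, 378 and 453 and 1000.0, 781 and 1255 (1.34 ± 0.13, adjusted p = 7.3e-05). In all 3 the lowest section E value was above the highest section A value. The *lama5* call was lost in the 6 libraries alone and without embryo 1. *Lamb1* (0.51), the cadherins *cdh1* (1.49) and *cdh2* (3.00) and *pcdh9* (2.79) were the other calls.

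Zinc finger factors and ubiquitin ligases were called in both directions. Of 158 zinc finger and BTB transcription factors, 11 were higher in E (6.96%) and 6 higher in A (3.80%), with 6 and 36 under total counts. Both shares were a little below the 8.01% and 4.46% of all symbols. *Zbtb22* had 14.3, 17.6 and 15.9 in A and 3481, 2034 and 2438 in E (7.35 ± 0.26, adjusted p = 1.7e-07), and *zbtb10* had 119.9, 107 and 117 and 1063, 928 and 1101 (3.17 ± 0.15, adjusted p = 8.1e-07). *Znf292*, among the 6 largest differences in counts on the animal side, had 1005, 1151 and 1041 in A and 451, 551 and 499 in E (-1.09 ± 0.09, adjusted p = 3.1e-05). Ubiquitin ligases of the HECT and RING classes were split evenly, with 10 of 108 (9.26%) in each direction. With total counts, however, 8 were higher in E and 40 higher in A. Without each embryo in turn, 7 were higher in E and 2 or 3 higher in A. *Rnf111*, which marks inhibitors of TGF-beta signals for degradation, had 129, 117 and 99.8 in A and 7169.7, 3349 and 5441 in E (5.50 ± 0.23, adjusted p = 3.3e-07). *Rnf213*, a giant ligase with an ATPase motor, went the other way, with 443, 434 and 479.9 in A and 135, 120.4 and 157 in E (-1.72 ± 0.09, adjusted p = 1.1e-06). *Birc6*, a giant inhibitor of apoptosis, had 855, 984 and 1072 in A and 505, 314 and 510.0 in E (-1.14 ± 0.15, adjusted p = 5.6e-04), and its call was lost without embryo 3 (-0.92 to -1.35 without each embryo in turn). *Huwe1* (-1.84) and *ubr4* (-0.95), further large ligases, were also higher in A. Of 66 splicing factors, 5 were higher in E (7.58%, near the share of all symbols) and none higher in A. The 5 included *hnrnpul2* (1.18 ± 0.16) and *lsm4* (0.82 ± 0.14). With total counts 1 was higher in E and 11 higher in A. Without embryo 1, 2 were higher in E, and without embryo 2 or embryo 3 none was called in either direction.

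Most transcripts higher in section A differed by less than 2-fold, in 468 of 679 calls. The 6 largest differences in mean normalized counts among transcripts with a symbol were those of *mki67*, *cenpf*, *fat1*, *atrx*, *znf292* and *birc6*. *Mki67*, a coat protein of mitotic chromosomes, had 2020.0, 1724 and 1809.7 in A and 1095, 1153 and 1406 in E (-0.60 ± 0.11, adjusted p = 0.0049). *Cenpf*, a kinetochore protein, had 1442, 1754 and 1728 and 802, 1066 and 1067 (-0.75 ± 0.10, adjusted p = 5.8e-04). *Fat1*, a giant protocadherin, had 1488, 1563 and 1704 and 872, 778 and 1028 (-0.83 ± 0.10, adjusted p = 3.4e-04). *Atrx*, a chromatin remodeller, had 875, 1052 and 1001 and 423, 488 and 498 (-1.06 ± 0.10, adjusted p = 1.0e-04). The poles did not overlap for any of the 4, and every embryo had the same sign. *Cenpf* peaked in section B with a mean of 2087 and *atrx* there with 1148. Of the 47 named transcripts called higher in A, 7 were still called without each embryo in turn, against 47 of 72 called higher in E. The named transcripts include those picked for the largest differences and the smallest adjusted p, so they do not stand for all calls. Over all calls, 687, 807 and 709 of the 1790 for E were made again without embryo 1, 2 or 3, respectively. For A, 80, 43 and 59 of the 679 were made again in the same fits. *Rnf213*, *dync1h1*, *cep192*, *atrx* and *znf292* were called under every one of the 10 alternatives, while *mki67*, *cenpf* and *fat1* lost their call whenever an embryo was left out, at -0.47 to -0.88.

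Motor proteins of microtubules and parts of the centrosome had calls in both directions, with more on the animal side in the main fit. Of 52 kinesin, dynein and dynactin genes, 7 were higher in A (13.5%) and 4 higher in E (7.69%), beside 4.46% and 8.01% of all symbols. In smaller fits more of these genes were called higher in E than in A. There were 4 against 1 in the 6 libraries alone, and 3 or 4 against 2 without each embryo in turn. *Dync1h1*, the heavy chain of cytoplasmic dynein, had 641, 686 and 799 in A and 274, 276 and 288 in E (-1.34 ± 0.07, adjusted p = 1.7e-06). *Kif20b* (-1.15), *kif5b* (-0.53), *kif5c* (-1.17), *kif21a* (-1.04), *kif24* (-0.58) and *nde1* (-0.66) were the other animal calls. *Kif14*, a kinesin of cytokinesis, was higher in E, with 170.0, 207 and 196 in A and 698, 768 and 900.3 in E (2.04 ± 0.09, adjusted p = 3.3e-07), as were *kif19* (2.69 ± 0.19), *kif13b* (1.37) and *ndel1* (3.29). *Ndel1*, a partner of dynein, and its relative *nde1* were thus called at opposite poles. Of 48 tubulin and centrosome genes, 7 were higher in A (14.6%) and 1 higher in E, *numa1* (1.50). *Cep192*, which builds the pericentriolar material, had 437, 494 and 538 in A and 179, 193 and 241 in E (-1.26 ± 0.07, adjusted p = 1.6e-06). *Pcm1*, of the centriolar satellites, gave -0.73 ± 0.10, and 3 subunits of the gamma-tubulin complex, *tubgcp3* (-0.59), *tubgcp5* (-1.14) and *tubgcp6* (-0.88), were higher in A as well. Of 46 actin, myosin and septin genes, 4 were higher in A and 3 higher in E. *Myh9*, a nonmuscle myosin heavy chain, had 749, 761 and 749 in A and 358, 314 and 465 in E (-0.997 ± 0.12, adjusted p = 4.7e-04). *Anln*, anillin, which links actin and septins in the cleavage furrow, had 212, 155 and 168 in A and 2505, 1522 and 2060.4 in E (3.51 ± 0.26, adjusted p = 1.5e-05), and *septin6* had 187, 209 and 172 and 2328, 1423 and 2101 (3.38 ± 0.23, adjusted p = 7.2e-06). *Anln* and *septin6* were vegetal while the myosin was animal. The summed normalized counts of the actin list ran from 12378 to 13126 in A and from 14149 to 16230.0 in E, and those of the kinesin and dynein list overlapped (14933 to 15077 in A and 14881 to 15769 in E).

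Nuclear transport and DNA replication genes were called mostly in the animal direction. Of 49 nucleoporins and transport receptors, 9 were higher in A (18.4%) and 1 higher in E, *ipo13* (1.71), and the list median was -0.28. *Ranbp2*, the large nucleoporin of the cytoplasmic face, had 349, 386 and 391 in A and 179, 195 and 229 in E (-0.90 ± 0.07, adjusted p = 2.2e-05). *Ipo7* had 746, 808 and 836 and 419, 518 and 462 (-0.77 ± 0.08, adjusted p = 1.1e-04), and its fellow importin *ipo5* gave -0.78 ± 0.08 (adjusted p = 1.7e-04). Section A was above section E in every embryo for these genes. Of 42 DNA replication genes, 7 were higher in A (16.7%) and 1 higher in E, *mcm3* (0.61), with a list median of -0.33. *Pcna*, the sliding clamp of DNA polymerases, had 478, 612 and 559 in A and 253, 334 and 171 in E (-1.14 ± 0.18, adjusted p = 0.0018), and its call was lost whichever embryo was left out (-0.89 to -1.30). *Top2a* gave -0.49 ± 0.06 and *rrm1*, a subunit of ribonucleotide reductase, -0.50 ± 0.08, and these calls too were lost whichever embryo was left out. Of 31 cyclins, CDKs and their regulators, with a list median of -0.03, *bub1b* (-0.85 ± 0.11), *aurka* (-0.42 ± 0.07) and *cdk2* (-0.52) were higher in A and *fzr1* (0.70 ± 0.12) higher in E. The *bub1b* and *aurka* calls were lost in the 6 libraries alone and whichever embryo was left out. That of *fzr1* was lost with total counts, in the 6 libraries alone and without embryo 1 or embryo 3. Of 86 histone modifiers and chromatin remodellers, 7 were higher in A and 2 higher in E, with a list median of -0.31. *Setd1a*, a histone H3 methyltransferase, gave -0.71 ± 0.12, and *kdm4b*, a demethylase, 0.81 ± 0.08. The *setd1a* and *kdm4b* calls were lost in the 6 libraries alone and whichever embryo was left out. With total counts, 32 of the 49 nucleoporin and transport genes and 27 of the 42 replication genes were higher in A. Over all 28909 transcripts, counted singly and not by symbol, 3793 were. The share of all symbols under that scaling is not given here. Few animal calls of these lists were made with fewer libraries. Without each embryo in turn there were 0 for the replication, cyclin and histone modifier lists, 1 or 2 for nucleoporins, 2 for kinesins and dynein, 1 for tubulins and centrosome and 0 or 1 for actin, myosins and septins.

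Genes of translation and energy supply sat a little below the median transcript, with few calls. Cytosolic ribosomal proteins had a list median of -0.22, with 5 of 76 higher in A and none higher in E. *Rpl4* had 267, 253 and 271 in A and 133, 173 and 142 in E (-0.82 ± 0.12, adjusted p = 0.0016), and *rpl3* gave -0.63 ± 0.10 and *rpl27a* -2.22 ± 0.40. The calls of *rpl4*, *rpl3* and *rpl27a* were lost in the 6 libraries alone and whichever embryo was left out. *Rpl27a* ran from -2.69 to -0.72 over the 10 alternatives. Translation factors had a median of -0.21, with 5 of 64 higher in A, with the smallest adjusted p for *eif1ax* (-0.69 ± 0.09), and 1 higher in E, *eif4h* (0.82 ± 0.10), whose call was lost with total counts. The *eif1ax* call was lost in the 6 libraries alone and whichever embryo was left out. That of *eif4h* was also lost in the 6 libraries alone and without embryo 1 or embryo 2. Subunits of oxidative phosphorylation had the lowest median of the 29 lists, -0.57, with 5 of 70 higher in A and 1 higher in E. *Uqcrc2*, a core subunit of complex III, had 233, 254 and 268 in A and 112, 136 and 139.9 in E (-0.96 ± 0.09, adjusted p = 6.3e-05), whereas *uqcrfs1*, the Rieske protein of the same complex, had 142, 119 and 134 and 344, 355 and 421 (1.49 ± 0.23, adjusted p = 0.0017). These subunits of complex III were thus called in opposite directions. The *uqcrfs1* call was lost whichever embryo was left out (1.40 to 1.61). The *uqcrc2* call was lost in the 6 libraries alone and without embryo 1 or embryo 2 (-0.99 to -0.92 without each embryo in turn). Mitochondrial ribosomal proteins had a median of -0.20, with 1 of 64 in each direction, *mrpl37* (-1.34 ± 0.16) and *mrps26* (0.88 ± 0.13). Both calls were lost in the 6 libraries alone and whichever embryo was left out, and that of *mrps26* also with total counts. Proteasome subunits had a median of -0.38, with 2 of 32 higher in A, *psmd12* (-0.85 ± 0.16) and *psma8* (-0.93 ± 0.18), neither of which was called without the replicate block (adjusted p = 0.014 and 0.015). The *psmd12* and *psma8* calls were also lost in the 6 libraries alone, with counts summed per symbol and whichever embryo was left out. Chaperones of the cytosol and mitochondria had a median of -0.30. *Cct6a* (-1.08 ± 0.10) and *tcp1* (-0.83 ± 0.10), both of the chaperonin that folds actin and tubulin, were higher in A and *dnajb6* (1.02 ± 0.14) higher in E. All 3 calls were lost in the 6 libraries alone. Those of *tcp1* and *dnajb6* were also lost without embryo 2 or embryo 3, and that of *dnajb6* with total counts. The shares higher in A were 6.58% for cytosolic ribosomal proteins, 7.81% for translation factors and 7.14% for oxidative phosphorylation, beside 4.46% of all symbols. These shares are those of the main fit. Without each embryo in turn, each of these lists had 0 or 1 members called higher in A.

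**Figure D4:**
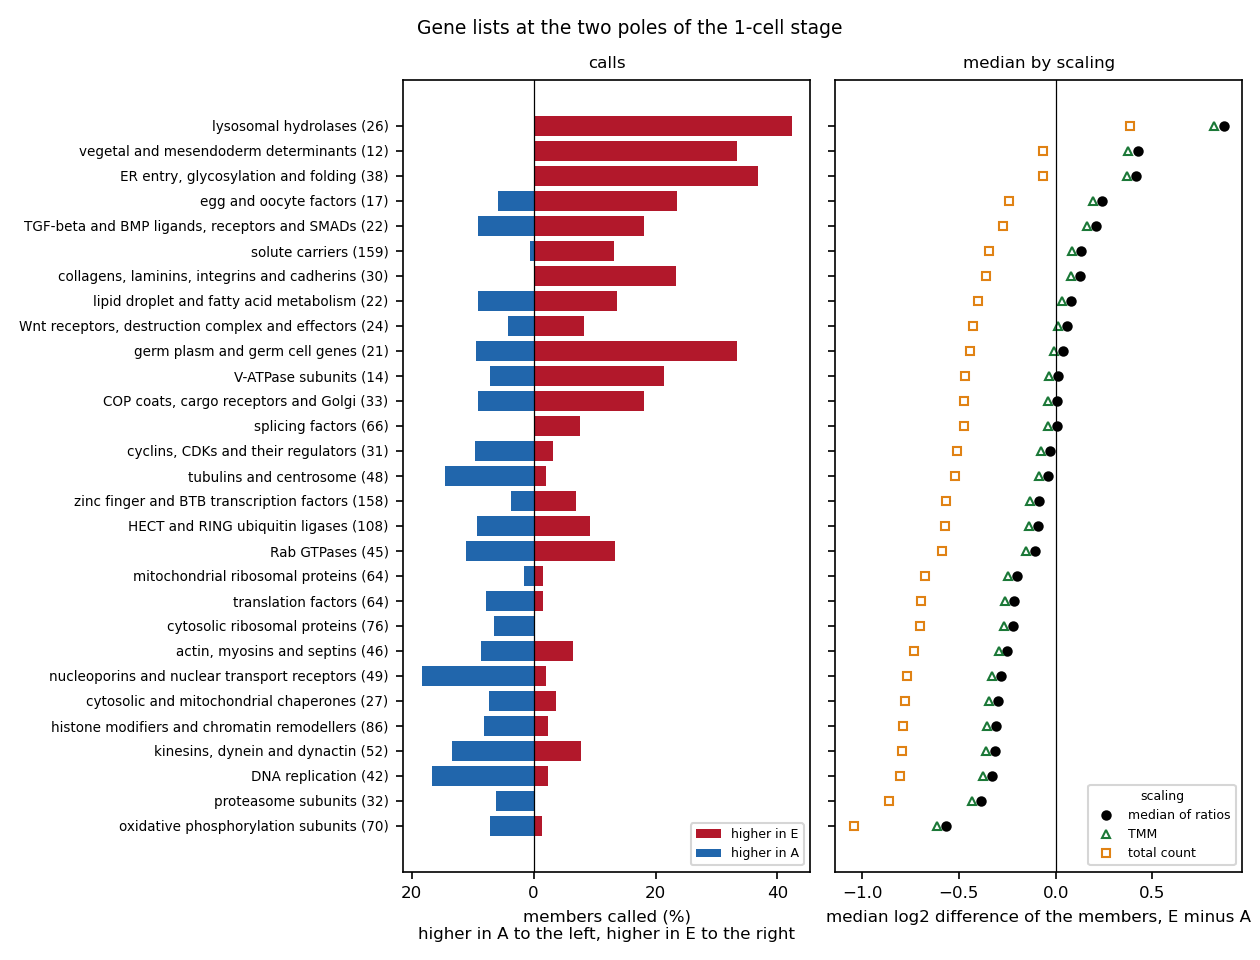
For 29 gene lists (number of measured members in brackets), the left panel gives the percent of members called higher in E (red, right) or higher in A (blue, left), and the right panel the median log2 difference of E minus A under 3 scalings. Lysosomal hydrolases lead at 42.3% higher in E with a median above 0 under every scaling, the total count scaling moves all medians to the left, and oxidative phosphorylation has the lowest median at -0.57.

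The study also named single genes for this stage. It placed *ankhd1* and *akt2* in its animal category by a test over all sections, and it measured both by RT-qPCR as well. *Sh3bp4*, an adaptor of endocytosis, had 144, 163 and 112 in A and 2726, 1168 and 2017 in E (3.79 ± 0.29, adjusted p = 1.9e-05). Its call was lost in the 6 libraries alone. *Ankhd1*, an ankyrin repeat protein, had 331, 539 and 555 in A and 256, 212 and 348 in E, and *akt2*, a kinase of insulin signalling, had 639.6, 695 and 726 and 530.2, 539 and 526. Both were lower in E in every embryo when compared with its own section A. The *ankhd1* values of the poles overlapped between embryos, and the fit gave -0.81 ± 0.21 (adjusted p = 0.030) and -0.37 ± 0.08 (adjusted p = 0.012), which missed the threshold of 0.01. *Akt2* passed with TMM factors (adjusted p = 0.0046). Both passed with total counts, with DESeq2 and with counts summed per symbol. *Kif4a*, a chromosome-bound kinesin, gave -0.31 ± 0.08 (adjusted p = 0.026). It passed with total counts, with DESeq2 and with counts summed per symbol. The study discussed a *kif4* RNA with transcripts that were vegetal at the 1-cell stage. Whether it is this transcript was not tested. *Actb*, cytoplasmic actin, had 143, 143 and 167 in A and 65.1, 88.7 and 62.2 in E (-1.07 ± 0.23, adjusted p = 0.011). It passed with TMM factors (adjusted p = 0.0084), with total counts and with DESeq2. The levels of *actb* did not overlap between poles although it was not called in the main fit.

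Among transcripts with a symbol, the largest fold changes on the animal side belonged to those at 0 in section E that shared a symbol with other transcripts. Some transcripts with no symbol had differences of similar size. AMEXTC_0340000230042, picked after its values were seen, had 78.7, 118 and 115 in A and was at least 58.9-fold lower in E. Among the 679 calls, 27 were at 0 in every section E library and 17 of these had a symbol. The 10 largest by fitted difference were transcripts of *copg2*, *cad*, *chmp7*, *rapgef2*, *vps51*, *hus1*, *eif4g1*, *shank2*, *kmt2c* and *dync1i2*. This ranking took only called transcripts with a symbol and a mean total of at least 100. *Copg2*, a COPI coat subunit, had 128, 201 and 101 in A and was at least 81.5-fold lower in E. *Chmp7*, an ESCRT-III protein of the nuclear envelope, had 97.5, 100.1 and 101 in A and was at least 56.5-fold lower in E. *Cad*, the enzyme that starts pyrimidine synthesis, had 152, 49.1 and 126 in A and was at least 61.9-fold lower in E. Their levels in A were low, between 34.6 and 143 on average for the 10. All 10 lost their call in the 6 libraries alone, and all but *chmp7* also lost it without at least 1 embryo. The *copg2* and *cad* calls were lost without embryo 1 or embryo 3. With counts summed per symbol, 6 of the 17 stayed called higher in A, and 4 took the opposite sign. Of those 6, 2 (*dglucy* and *pax8*) were the only transcript of their symbol, so summing could not change their counts. The others were *copg2* (-0.43), *cad* (-0.72), *kmt2c* (-1.25) and *vps13b* (-0.64). *Chmp7* gave -0.02 (adjusted p = 0.94). Among the 1790 vegetal calls, 25 were at 0 in every section A library, 5 with a symbol, and 2 of those 5 kept their call when summed. How the counting divided reads among transcripts of a symbol was not tested.

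The labels call the samples fertilized eggs, and markers of the egg were measured at both poles. Of 22 egg and oocyte genes, 17 had a transcript, and their summed normalized counts ran from 5699 to 6009.6 in section A and from 7859 to 8449 in section E. *Zp3*, a coat glycoprotein of the egg, had 299, 344 and 285 in A and 1086, 1413 and 1389 in E (2.07 ± 0.12, adjusted p = 2.7e-06), and *zp4* gave 1.59 ± 0.14. In this list 4 were higher in E, with *bmp15* and *dazl*, and 1 higher in A, *patl2* (-0.73). With total counts 3 were higher in E and 5 higher in A. None of 10 follicle cell markers and 1 of 12 blood cell markers had a transcript under its symbol. The blood marker was *slc4a1*, an anion exchanger, with 84.1, 86.2 and 77.8 in A and 1442, 789 and 1291 in E (3.80 ± 0.24, adjusted p = 4.7e-06), and no globin had a transcript under its symbol. Of 11 sperm markers, *odf2* (-0.38 ± 0.21, adjusted p = 0.3) and *tekt1* (-0.48 ± 0.85, adjusted p = 0.8) were measured and neither was called. A transcript with no symbol, AMEXTC_0340000248516, had the highest normalized count of the stage, at a mean of 50737 in A and 230677 in E, and it was singled out after its values were seen. Its share in the difference between the scalings was not tested.

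Whether the pole difference of the fertilized egg was the same at the next stage was tested in a fit to the 29 libraries of the 1-cell and 4-cell stages, with the difference of the E minus A contrasts as the tested term. It differed for 69 of 28909 transcripts (0.239%). The log2 of E over A was lower at the 4-cell stage in 65 (0.225%) and higher in 4 (0.0138%). Of the 65, 62 were higher in E at the 1-cell stage and 3 were not called there, and the median change of the 65 was -1.44 on the log2 scale. Of the 4, 1 was higher in A at the 1-cell stage and 3 were not called there. At an unadjusted p under 0.05 there were 2380. The count was 44 with TMM factors, 17 with total counts and 357 with DESeq2. Among the named genes that passed the test of this change it was largest for the *slc25a22* transcript AMEXTC_0340000229531, whose mean log2 of E over A fell from 7.19 to 3.79. For *rbpms2-1* the means were 3.36 and 1.19. For *grip2-1*, *nanos1* and *dnd1* the tested change was -1.95, -2.47 and -0.70, and none of the 3 passed (adjusted p = 0.12, 0.047 and 0.79). The embryos of the stages were different animals.

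**Figure D5:**
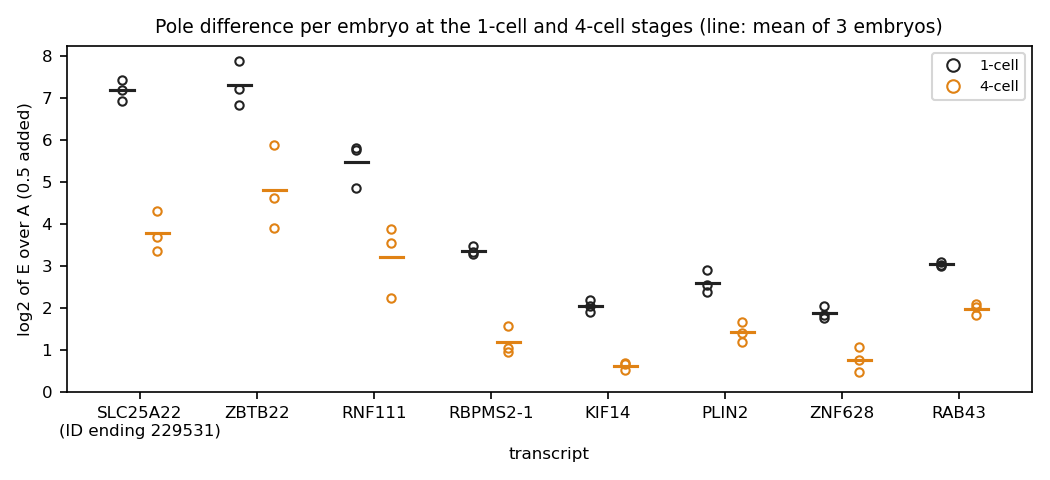
Log2 of section E over section A (vertical axis, 0.5 added to each normalized count) in each of 3 embryos of the 1-cell stage (black circles) and 3 of the 4-cell stage (orange circles) for the 8 named transcripts whose pole difference changed, with lines at the means. All 4-cell circles lie below the 1-cell circles of the same transcript, with means of 7.19 against 3.79 for *slc25a22* and of 3.04 against 1.98 for *rab43*.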

How the data were processed

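RNA of pooled cryosections from 3 fertilized axolotl eggs was sequenced as stranded, rRNA-depleted libraries of 100 ng total RNA each. According to the methods, the authors trimmed reads with Trimmomatic, removed ribosomal and mitochondrial reads, and estimated transcript counts with kallisto 0.43.1 on the AmexT_v34 transcripts. They kept transcripts with more than 30 counts in at least 1 sample. The deposited values are estimated counts given as whole numbers (0 fractional values), not normalized, for 28909 transcripts, 16245 of them with a human symbol.

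The main fit was edgeR 4.0.16 (R 4.3.3), a quasi-likelihood test with embryo as a block, section as the factor and median-of-ratios size factors, on the 14 libraries of the 1-cell stage with 7 residual degrees of freedom. P-values were adjusted over all transcripts by the Benjamini-Hochberg method, and a call required this value to be below 0.01 and the summed section means to exceed 20. Sections with the same number come from the same embryo by the labels. The deviations of sections A and E of an embryo correlated at 0.06, 0.02 and 0.02 over 18880 transcripts. Total counts of the 6 libraries ran from 1780255 to 5783104, which limits the precision at low counts. The stage comparison used 29 libraries. The scripts were tested on simulated data. Alternatives were TMM and total count scaling, filterByExpr, DESeq2 1.42.0, the 6 libraries alone, no block, a threshold of 0.05, counts summed per symbol and leaving out each embryo.

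Named genes were the 10 largest log2 differences in each direction among called transcripts with a symbol and a mean total of at least 100, the 6 largest count differences in each direction, genes the study names, and up to 3 called members of each list with the smallest adjusted p (the 2 most abundant where none was called). For lists, the most abundant transcript stood for a symbol, and genes with no transcript were left out. Other list members are named after their values were seen. Members and lists were chosen with earlier results of these data known. Counts were not divided by transcript length, on which ranks by count therefore also depend. Sequences come from the study's primers. The normalized tables of the same libraries were not used. Some genes that the rule names are not reported here.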

Additional observations from a re-analysis of the deposited data

Results flagged for a closer look

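The difference between the poles itself differed between the 1-cell and the 4-cell stage, by the test of the difference in edgeR, for 8 of the named transcripts, and in each it was smaller at the 4-cell stage. On the log2 scale the change (4-cell minus 1-cell) was -2.52 for *zbtb22* (adjusted p = 0.0088), -3.44 for the *slc25a22* transcript AMEXTC_0340000229531 (4.6e-04), -2.29 for *rnf111* (0.0084), -2.20 for *rbpms2-1* (1.2e-05), -1.06 for *rab43* (0.0060), -1.20 for *plin2* (0.0082), -1.43 for *kif14* (6.0e-05) and -1.10 for *znf628* (0.0052). In all 8, which this test had selected, the 3 embryos of the 4-cell stage lay below the 3 of the 1-cell stage. The remaining difference still favoured section E. *Zbtb22*, *rnf111*, *rab43* and *plin2* were not called with TMM factors, and these and *znf628* were not called with total counts.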

How the results depend on the processing

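Of 119 named calls, 119 kept their call with TMM factors and with filterByExpr, 118 with DESeq2, 112 with total counts and 55 in the 6 libraries alone, and none changed direction in these fits. Of the 8 named transcripts not called in the main fit, 6 were called with DESeq2. Calls for E numbered 2782 with DESeq2, 658 in the 6 libraries alone, 1135 of 9194 symbols with counts summed, and 698 to 824 without replicate 1, 2 or 3. Calls for A numbered 3793 with total counts, 1652 with DESeq2, 8 in the 6 libraries alone and 897 of 9194 symbols with counts summed. They numbered 1620 at an adjusted p under 0.05 and 60 to 105 without replicate 1, 2 or 3. Fits with fewer samples have fewer residual degrees of freedom. Transcripts whose pole difference differed between stages numbered 44 with TMM factors, 17 with total counts, 357 with DESeq2, 177 at an adjusted p under 0.05, and 21 to 44 without a replicate. Without the replicate block there were 1745 calls for E, 562 for A and 48 between stages, and 116 of the 119 named calls held. *Chd1*, *psmd12* and *psma8* did not. With counts summed per symbol, 4 of 117 named calls took the opposite sign: *habp4* (-0.20), *eif4g1* (0.049), *hus1* (0.060) and *vps51* (0.058). *Tekt1*, which was not called, ran from -1.92 to 0.24 without each replicate. The cause of these changes was not tested beyond what each alternative changes. Low-count transcripts and those sharing a symbol are the least certain, and the 3 embryos limit what can be called at small differences.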

Other observations

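Transcripts under the same human symbol were called at opposite poles for 6 of the 4259 symbols with several transcripts, which were found after the values were seen. They included *habp4*, *pttg1*, *sesn3*, *stk17a* and *trim35*. *Sesn3* encodes a stress-induced regulator of TOR signalling. Its transcript AMEXTC_0340000234687 had 189, 245 and 242 normalized counts in section A and 100.0, 143 and 129 in section E (-0.86 ± 0.14, adjusted p = 0.0021), while AMEXTC_0340000057903 had 45.6, 33.4 and 61.9 in A and 526, 355 and 603 in E (3.38 ± 0.23, adjusted p = 8.0e-06). *Pttg1*, securin, which holds separase inactive until anaphase, had 6 called transcripts. Of these, AMEXTC_0340000065762 had 401, 351 and 392 in A and 865, 863 and 868 in E (1.18 ± 0.10), and AMEXTC_0340000007230 had 152, 155 and 165 in A and 76.7, 80.8 and 82.4 in E (-0.98 ± 0.14). *Trim35*, a RING ligase, had a transcript at -0.87 and another at 1.84, and *stk17a*, a kinase, had one at -0.46 and others at 1.01 and 2.94. The ortholog table gives axolotl paralogs of a human gene and transcripts of 1 gene the same symbol, and these were not told apart.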
